A study of Mus musculus with 23 samples.

Results

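The genes of interleukin-10, its receptor and JAK-STAT feedback were followed in mouse macrophages over 6 h of lipopolysaccharide (LPS). The members are the cytokine gene Il10, its receptor chains Il10ra and Il10rb, the transcription factor gene Stat3, and the SOCS inhibitor genes Socs3 and Cish. They were chosen by name, and 5 of the 6 had a row among the 6397 genes with deposited values. Cish was not analysed here. Bone-marrow-derived macrophages (BMDMs) were grown from the marrow of C57BL/6 mice of 8 to 12 weeks in medium supplemented with L929 supernatant, and the sex of the mice is not given in the sources used here. The treated cultures received 100 ng/ml LPS for 1, 2, 4 or 6 h, and the control cultures were collected at 0 h. Each of the 5 time points had 2 biological replicates, A and B, and each culture was split into an RNA-seq library from rRNA-depleted RNA and a ribosome profiling (Ribo-seq) library of ribosome-protected fragments (RPFs). A separate CLIP-seq experiment mapped RNA bound by the protein Zfp36 in BMDMs after 4 h of the same LPS dose, with an antibody to the V5 tag that the knock-in mice carry on Zfp36, and compared 2 CLIP libraries with 1 input library.

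LPS activates macrophages through the receptor Tlr4. Il10 encodes a secreted cytokine that restrains this activation. It binds a receptor built from the ligand-binding chain Il10ra and the shared chain Il10rb, whose associated kinases Jak1 and Tyk2 phosphorylate Stat3. Stat3 then enters the nucleus and switches on genes that include Socs3. Socs3 binds gp130-type receptors and their JAK kinases and blocks them, and through its SOCS box it recruits a ubiquitin ligase. The IL-10 receptor is known to escape Socs3, so that the inhibitor limits IL-6 signalling while IL-10 signalling goes on. Cish belongs to the same SOCS family.

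The question put to these genes was how mRNA level, ribosome occupancy and apparent translation efficiency (TE, the RPF value over the RNA value of one culture) moved over the time course. Values are in RPKM, a read density scaled to gene length and to the size of the library, so that levels of different genes can be set side by side. Low Ribo-seq values ran in steps of whole reads with the coding length, while the length used for the RNA values was not resolved. The order of different genes by RNA or TE depends on that length. RPKM is a share of each library, and in bulk cultures fewer cells of a type and less RNA per cell cannot be told apart.

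Zfp36, also called tristetraprolin, binds AU-rich elements in the 3′UTRs of cytokine mRNAs. Of the 5 genes, 3 were on the list of 280 mRNAs with a Zfp36 peak (Socs3, Il10 and Il10ra), beside 133 of the 6397 genes in the RPKM table (2.08%). Il10rb and Stat3 had no listed peak. All 3 peaks lay in 3′UTRs, as did 65 of the 280 listed peaks (23.2%), placed by their centre on RefSeq mRNAs, while 194 (69.3%) fell in introns by that placing. The stretches below show the AU-rich letters within the Il10 and Socs3 peaks, read from the mm10 genome on the mRNA strand. Capitals mark TATTTAT, the core of the Zfp36 element, with overlapping copies joined.
Il10: aactgtggccagtttgtTATTTATaaccac
Socs3: ttgcacataTATTTATATTTATactcagaa

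The Il10 stretch is chr1:131024821-131024850 on the plus strand, within a peak of 50 bases (chr1:131024801-131024850) that the study's peak caller placed 32.0-fold over input. The peak centre lies 558 bases into a 3′UTR of 702 bases. The Socs3 stretch is chr11:117966136-117966165 on the minus strand, within a peak of 100 bases (chr11:117966101-117966200) with a fold of 28.6, centred 1402 bases into a 3′UTR of 1474 bases. These folds rank 62 and 69 among the 280 peaks, whose median is 15.0. The Il10 peak holds 1 copy of TATTTAT and the Socs3 peak 2 overlapping copies. The motif occurs on the mRNA strand in 7.95% of the 264 listed peaks of 50 bases and in 33.3% of the 12 of 100 bases. The Il10ra peak (chr9:45254701-45254750, minus strand, 9.89-fold) has neither TATTTAT nor ATTTA in its 50 bases. Peaks were deposited as 1 merged list, so replicate spread cannot be given for them.

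The promoter sequence of Socs3 is shown because STAT factors act on this gene. RefSeq promoter windows were given for Socs3 and Stat3, not for Il10, Il10ra and Il10rb. The 250 bases upstream of the RefSeq start of Socs3 (GRCm38.p6, chr11:117969367-117969616, minus strand) were searched on both strands for TTCNNNGAA (STAT), GGNNTTTCC (NF-kB), TGANTCA (AP-1) and TGACGTCA (CRE). Capitals mark the only match, a STAT match 154 to 146 bases before the start.
Socs3 upstream: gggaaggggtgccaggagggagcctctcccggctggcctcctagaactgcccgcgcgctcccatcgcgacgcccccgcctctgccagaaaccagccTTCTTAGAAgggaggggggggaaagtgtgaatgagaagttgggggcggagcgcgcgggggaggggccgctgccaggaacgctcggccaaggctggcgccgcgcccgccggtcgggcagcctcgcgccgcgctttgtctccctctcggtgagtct

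A STAT match occurs in 7.02% of the 32851 mouse promoter windows of this length, an NF-kB match in 4.93%, an AP-1 match in 6.75% and a CRE match in 1.55%. The window of Stat3 (chr11:100939541-100939790, minus strand) held none of these letters. A match describes the sequence and was not tested as a binding site. The STAT pattern TTCNNNGAA is its own reverse complement, so a match is found at the same place on both strands.

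The steps of the low Ribo-seq values put between 550000 (6 h replicate A) and 3460000 (4 h replicate A) reads behind each RPF library, and the depth of the RNA libraries was not resolved. Of 11 macrophage marker symbols, 10 had rows, and the other, Emr1, is an older name of Adgre1, which had one. The summed RNA of the 10 markers was 12685 to 14500 RPKM before LPS, 8878 to 11377 after 4 h and 9629 to 11742 after 6 h. Their summed RPFs were 49841 to 55421 RPKM before LPS, 28452 to 28475 after 4 h and 27372 to 29295 after 6 h, and the part of this in the footprint changes was not tested. No marker of neutrophils, lymphocytes, dendritic cells or erythroid cells had a row, and of the fibroblast markers only Col1a1 had one, at no more than 1.36 RNA RPKM. The deposited values cover 6397 genes, and a missing row does not show that a gene was not expressed. The median tested gene shifted on the log2 scale by -0.15, -0.22, -0.33 and -0.41 in RNA and by -0.18, -0.32, -0.50 and -0.66 in RPFs at 1, 2, 4 and 6 h against 0 h, so small decreases have to be read against that shift.

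Il10 mRNA was low before LPS and highest at 1 h. Its RNA was 7.88 and 11.7 RPKM in replicates A and B before LPS, 205 and 237 after 1 h, 135 and 168 after 2 h, 202 and 199 after 4 h, and 147 and 149 after 6 h. No LPS library overlapped the 0 h libraries, and the order of the means was 1 h, 4 h, 2 h, 6 h and 0 h, with overlapping replicates only between 2 and 6 h. The mean at 1 h was 22.6 times that at 0 h, and the log2(RPKM + 1) change was 4.38 (SE 0.15, limma adjusted p = 1.98e-12). Il10 mRNA stayed higher at 2, 4 and 6 h than at 0 h, by 3.83, 4.25 and 3.81 on that scale.

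The footprint changes of Il10 against 0 h were larger in size than its RNA changes, a difference that the TE test addresses. RPFs were 5.84 and 13.8 RPKM before LPS, 627 and 761 after 1 h, 292 and 454 after 2 h, 563 and 555 after 4 h, and 226 and 275 after 6 h. The footprints were highest at 1 h, lower at 2 h, up again at 4 h and at their lowest after LPS at 6 h. The changes against 0 h were 6.10, 5.18, 5.80 and 4.64 on the log2 scale (SE 0.34 each, limma adjusted p between 1.06e-06 and 4.53e-06). The 0 h values rest on 4 reads in replicate A, with an exact 95% counting interval of 1.59 to 14.9 RPKM, and on 17 reads in replicate B, with an interval of 8.0 to 22.0 RPKM. Against those few reads, the 1 h values rest on 566 and 692 reads.

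The apparent TE of Il10 was 0.741 and 1.18 before LPS, 3.05 and 3.22 after 1 h, 2.16 and 2.70 after 2 h, 2.78 and 2.79 after 4 h, and 1.53 and 1.84 after 6 h. Every LPS culture was above both 0 h cultures, and both 6 h cultures were below all cultures of 1, 2 and 4 h. Few footprint reads stand behind some of these values, 4 and 17 at 0 h and 66 in 6 h replicate A. How many other genes separate in this way was not counted. In rank, Il10 had a higher TE than 8.74% and 27.9% of the 4621 tested genes before LPS, and 89.5% and 86.0% after 1 h. The shares were 74.7% and 84.4% after 2 h, 91.3% and 93.4% after 4 h, and 56.2% and 70.8% after 6 h. The TE change at 1 h against 0 h was 1.72 on the log2 scale (SE 0.26, 95% interval 1.13 to 2.32), which did not pass in limma after adjustment over all genes (adjusted p = 0.214). At 4 h against 0 h it was 1.55 (interval 0.96 to 2.14, adjusted p = 0.658). By absolute size among the 4621 genes, the Il10 TE change against 0 h ranked 64 after 1 h, 74 after 2 h, 13 after 4 h and 539 after 6 h. At 6 h against 4 h it was -0.73 (interval -1.32 to -0.14, adjusted p above 0.99). Without 1 h replicate A the TE change at 1 h passed (1.76, adjusted p = 0.0185), when 294 of all tested genes passed, and over the other alternatives the adjusted p lay between 0.0847 and 0.881.

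**Figure D1:**
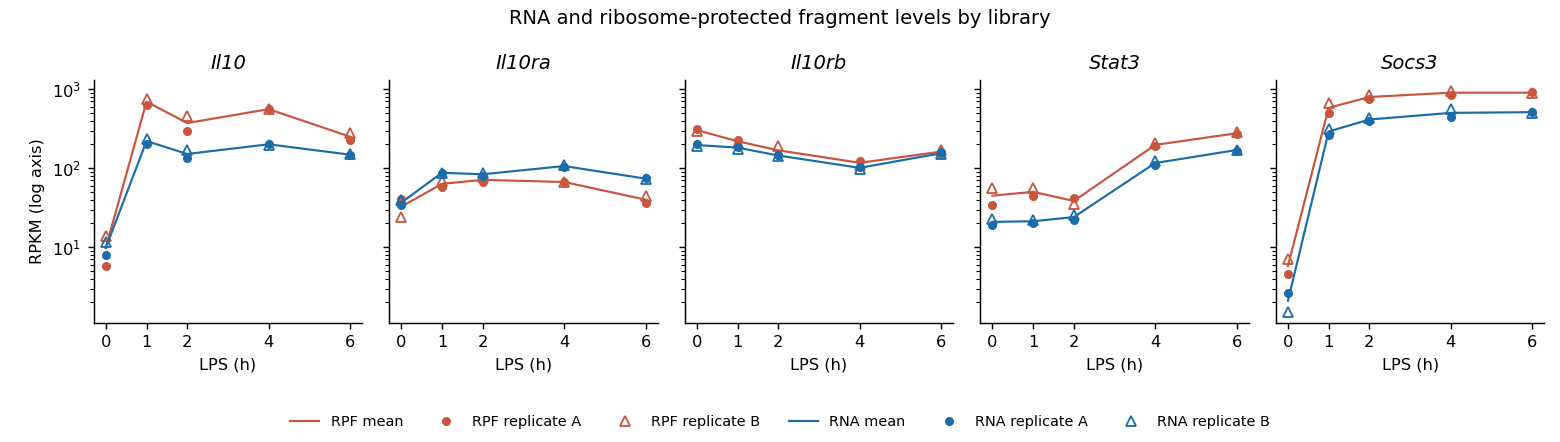
RNA (blue) and RPF (red) levels in RPKM on a log axis against hours of LPS, 1 panel per gene, with replicate A as filled circles, replicate B as open triangles and lines through the means of 2. Il10 and Socs3 RNA lie at 205 to 317 RPKM in the 1 h libraries, against 1.53 to 11.7 RPKM in the 0 h libraries, Stat3 RNA stays at or under 25.9 RPKM until 2 h and is at 110 to 172 RPKM at 4 and 6 h, and Il10rb has its lowest values at 4 h.

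The receptor chains went in opposite directions. Il10ra, the ligand-binding chain, had RNA values of 34.4 and 39.1 RPKM before LPS, 87.1 and 88.1 after 1 h, 79.5 and 88.1 after 2 h, 105 and 108 after 4 h, and 75.0 and 72.5 after 6 h. All 8 LPS libraries were above both 0 h libraries, with the highest pair at 4 h. Its RNA rose by 1.23, 1.17, 1.51 and 0.99 on the log2 scale at 1, 2, 4 and 6 h against 0 h (SE 0.11 each, limma adjusted p no larger than 5.68e-07).

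Footprints on Il10ra were 40.9 and 24.5 RPKM before LPS, 58.5 and 68.4 after 1 h, 66.1 and 76.5 after 2 h, 65.9 and 67.8 after 4 h, and 35.9 and 44.1 after 6 h. They rose at 2 h (1.14, SE 0.30, adjusted p = 0.0401) and 4 h (1.06, adjusted p = 0.0214). At 1 h the change was 0.98 (adjusted p = 0.174) and at 6 h, where the 6 h and 0 h values overlap, it was 0.32 (adjusted p = 0.396), or 0.84 (adjusted p = 0.0457) with median centring. Both calls were lost without 0 h replicate B, the lower of that pair, with 0.78 (adjusted p = 0.210) at 2 h and 0.69 (adjusted p = 0.15) at 4 h. They were also lost without either replicate of the treated time itself (adjusted p 0.0958 and 0.134 at 2 h, 0.106 and 0.115 at 4 h), and the call at 2 h without any 1 of the 4 h or 6 h libraries (0.05004 to 0.0846).

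Il10rb, the chain that IL-10 shares with IL-22 and the lambda interferons, started at a higher level. Its RNA was 201 and 192 RPKM before LPS, 187 and 178 after 1 h, 147 and 142 after 2 h, 104 and 98.0 after 4 h, and 160 and 150 after 6 h. The pairs of different times did not overlap, and the values were lowest at 4 h and higher again at 6 h. The change was -0.11 at 1 h (adjusted p = 0.477), and RNA fell by 0.44 at 2 h (SE 0.11, adjusted p = 0.00354) and by 0.95 at 4 h (adjusted p = 8.72e-07). At 6 h the change was -0.34 (adjusted p = 0.00793), no larger than the -0.41 of the median tested gene. With each library centred on its median the 6 h change was -0.12 (adjusted p = 0.301), and without 6 h replicate B it was -0.30 (adjusted p = 0.0808).

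RPFs of Il10rb were 312 and 296 RPKM before LPS, 229 and 209 after 1 h, 148 and 190 after 2 h, 123 and 111 after 4 h, and 152 and 172 after 6 h. Every LPS library lay below both 0 h libraries. The footprint change was -0.47 at 1 h (adjusted p = 0.297), and footprints fell by 0.86 at 2 h (adjusted p = 0.020), by 1.37 at 4 h (SE 0.19, adjusted p = 0.000473) and by 0.90 at 6 h (adjusted p = 0.00389). With median centring the fall at 2 h was -0.64 (adjusted p = 0.0627) and that at 6 h -0.39 (adjusted p = 0.133). The call at 2 h was also lost without 0 h replicate A (adjusted p = 0.125), 0 h replicate B (0.0855) or 2 h replicate A (0.112).

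By level, Il10rb RNA was 5.34 times Il10ra RNA at 0 h, 0.949 times at 4 h and 2.1 times at 6 h, in means of RPKM. The ratio was 1.00 and 0.904 in replicates A and B at 4 h.

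**Figure D2:**
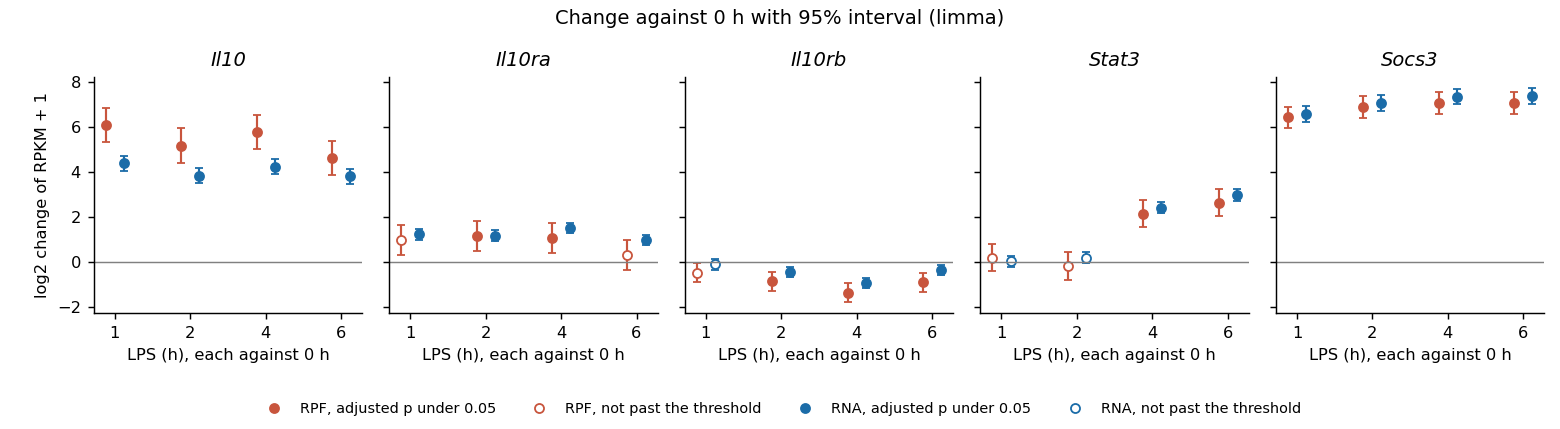
Log2 change of RPKM + 1 at 1, 2, 4 and 6 h, each against 0 h, for RPFs (red) and RNA (blue), 1 panel per gene, with 95% intervals from limma, filled points at an adjusted p under 0.05 and open points otherwise. Socs3 lies between 6.43 and 7.40 in both assays at all 4 times, Stat3 is near 0 until 2 h and at 2.15 to 2.97 from 4 h, and Il10rb reaches its lowest value at 4 h.

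Stat3, the transcription factor downstream of the IL-10 receptor, was a late gene. Its RNA was 19.1 and 22.8 RPKM before LPS, 20.4 and 22.2 after 1 h, 22.3 and 25.9 after 2 h, 110 and 123 after 4 h, and 167 and 172 after 6 h. The 1 h libraries lay within the 0 h pair, and the step came between 2 and 4 h. The change was 0.03 at 1 h (95% interval -0.23 to 0.29) and 0.19 at 2 h (interval -0.06 to 0.45), and RNA rose by 2.42 at 4 h (SE 0.12, adjusted p = 4.45e-11) and by 2.97 at 6 h (adjusted p = 3.03e-12).

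Footprints on Stat3 were 34.2 and 55.7 RPKM before LPS, 44.6 and 55.8 after 1 h, 41.8 and 35.3 after 2 h, 189 and 206 after 4 h, and 270 and 284 after 6 h. They had the same late step, with all 4 libraries of 4 and 6 h above the 6 earlier ones. Footprints rose by 2.15 at 4 h (SE 0.27, adjusted p = 0.000231) and by 2.64 at 6 h (adjusted p = 4.45e-05) against 0 h. At 4 h against 2 h the change was 2.33 (adjusted p = 0.000417), which makes Stat3 the only one of the 5 genes whose footprints changed past the threshold between neighbouring times after 0 h.

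Socs3, the feedback inhibitor, changed most of the 5 genes. Its RNA was 2.67 and 1.53 RPKM before LPS, 266 and 317 after 1 h, 391 and 436 after 2 h, 444 and 559 after 4 h, and 520 and 504 after 6 h. The means ran upward to 6 h, with overlapping replicates between 4 and 6 h only. The mean at 1 h was 139 times and that at 6 h 244 times the mean at 0 h. On the log2(RPKM + 1) scale the changes were 6.58, 7.08, 7.36 and 7.40 at 1, 2, 4 and 6 h (SE 0.16 each, adjusted p no larger than 3.31e-14), and 4 of the 4805 tested genes changed more than Socs3 at 1 h.

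Footprints on Socs3 were 4.59 and 7.00 RPKM before LPS, 493 and 669 after 1 h, 753 and 840 after 2 h, 846 and 960 after 4 h, and 922 and 886 after 6 h. They followed the mRNA, with rises of 6.43, 6.90, 7.08 and 7.08 (SE 0.22 each, adjusted p no larger than 4.35e-08). The 0 h values rest on 4 and 11 reads, with exact 95% counting intervals of 1.26 to 11.8 and 3.51 to 12.6 RPKM. At 6 h Socs3 had the highest mean RNA value of the 5 genes (512 RPKM), followed by Stat3 (170), Il10rb (155), Il10 (148) and Il10ra (73.8). At 0 h the order by mean RNA was Il10rb, Il10ra, Stat3, Il10 and Socs3.

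Like that of Il10, the TE of the 4 other genes did not change past the threshold at any time. Socs3 had a TE between 1.72 and 2.11 in the 8 LPS cultures, and of 1.72 and 4.57 at 0 h, where few reads stand behind it. Il10ra had the lowest TE after LPS, between 0.478 and 0.868 in the 8 LPS cultures, and 1.19 and 0.63 at 0 h. It was above no more than 19.6% of the tested genes in any LPS culture. Il10rb had 0.954 and 1.15 at 6 h and 1.55 and 1.54 at 0 h, a change of -0.56 (95% interval -1.15 to 0.03, adjusted p = 0.429). Stat3 had 1.61 and 1.65 at 6 h and 1.79 and 2.45 at 0 h, a change of -0.33 (interval -0.91 to 0.25, adjusted p = 0.624). For Socs3 the change at 6 h was -0.32 (interval -1.06 to 0.43), and for Il10ra it was -0.67 (interval -1.48 to 0.15). The median tested gene itself moved by -0.27 in TE at 6 h. With 5 RPKM added in place of 1, the Socs3 change turned positive at every time (0.21 to 0.37).

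**Figure D3:**
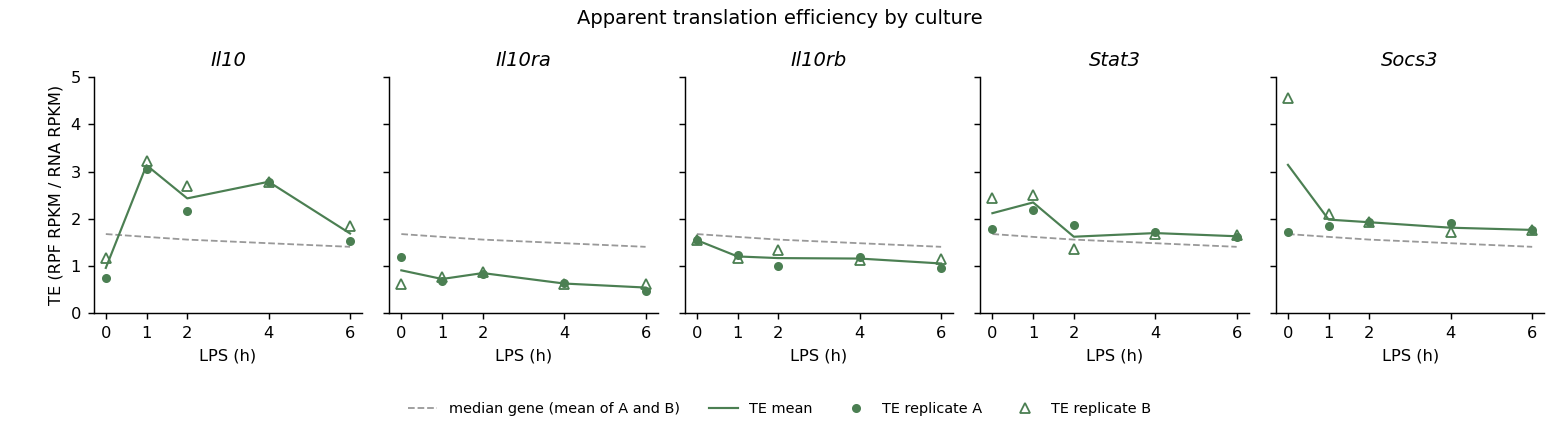
Apparent TE (RPF RPKM over RNA RPKM) against hours of LPS, 1 panel per gene, with replicate A as filled circles, replicate B as open triangles, a green line through the means and a dashed grey line for the median tested gene. Il10 lies below the median gene at 0 h, at 2.16 to 3.22 from 1 to 4 h and at 1.53 and 1.84 at 6 h, while Il10ra lies below the median gene in every culture.

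All 5 genes passed the filter of a mean of 10 RPKM, Socs3 and Il10 only through their LPS libraries. Counts of calls therefore describe these genes and are not support for a shared response. In RNA, 3 of the 5 changed at 1 h against 0 h (16.8% of all tested genes did), 4 at 2 h (53.4%), and all 5 at 4 h (76%) and at 6 h (81%). In RPFs, 2 of the 5 changed at 1 h (3.26% of all tested genes), 4 at 2 h (10.5%), 5 at 4 h (35.2%) and 4 at 6 h (48.8%). In TE none of the 5 passed the threshold at 1, 2, 4 or 6 h against 0 h, nor between neighbouring times. Neither did any of the 4621 tested genes (0% in each of the 7 limma comparisons). With 2 replicates per time, that does not show that TE stayed the same. The 0% at 1 h against 0 h and at 2 h against 1 h did not hold without 1 h replicate A. At an unadjusted limma p under 0.05 there were 305, 317, 339 and 558 genes for TE at the 4 times against 0 h. With no change in any gene, a share of about 0.05 of the 4621 would still pass that threshold. A single model over both assays called 3 genes at 1 h and 4 at 6 h, none of them among the 5.

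For Il10 and Socs3 the RNA changes between neighbouring times after 0 h were smaller than any of their changes against 0 h, while the sizes for Il10rb overlapped with those against 0 h. At 2 h against 1 h, 3 of the 5 changed in RNA (22.9% of all tested genes did), with Il10 at -0.55 (adjusted p = 0.0166), Il10rb at -0.33 (0.0359) and Socs3 at 0.51 (0.0346). At 4 h against 2 h, 4 of the 5 changed (57.3%), with Stat3 at 2.23 (3.87e-10), Il10rb at -0.51 (0.000732), Il10 at 0.41 (0.0319) and Il10ra at 0.34 (0.0144). At 6 h against 4 h, 4 of the 5 changed (40.9%), with Il10rb at 0.61 (0.000348), Stat3 at 0.55 (0.00215), Il10ra at -0.52 (0.00139) and Il10 at -0.43 (0.0352). In RPFs none of the 5 changed at 2 h against 1 h (5.04% of all tested genes), 1 at 4 h against 2 h (16.3%) and none at 6 h against 4 h (4.42%). The RPF counts over all genes moved with single libraries: 266 calls at 2 h against 1 h became 845 without 1 h replicate A and 166 to 170 without 1 h replicate B or either 4 h replicate. At 4 h against 2 h, 858 became 280 to 571 without any 1 of the 2 h or 4 h libraries. At 6 h against 4 h, 233 became 14 to 133 without any 1 of the 0 h, 4 h or 6 h libraries, and 428 or 432 without a 1 h library. For Il10 the footprint change at 6 h against 4 h was -1.16 (SE 0.34, adjusted p = 0.0904). It passed without either 0 h replicate (adjusted p 0.0442 and 0.0455).

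Several of these smaller calls rested on single libraries. The Il10 change at 2 h against 1 h was lost without 1 h replicate B (adjusted p = 0.134) or 2 h replicate A (0.193), that at 4 h against 2 h without 2 h replicate A (0.268) or either 4 h replicate (0.118 and 0.0912), and that at 6 h against 4 h without any of the 4 libraries concerned (0.0993 to 0.117) or with median centring (-0.31, adjusted p = 0.158). The Il10rb change at 2 h against 1 h was lost without any 1 of the 1 h, 2 h or 6 h libraries (0.0644 to 0.209). The Socs3 change at 2 h against 1 h was lost without 1 h replicate A (0.260), 2 h replicate A (0.0651) or 2 h replicate B (0.192), and with 0.1 RPKM added (0.0763). The Il10ra change at 4 h against 2 h was lost without 2 h replicate A (0.128).

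Genes whose RNA profile over the 10 libraries was most like that of each member were searched among 2231 genes that changed by at least 1 on the log2 scale between time means. The correlations are descriptions over libraries that share the same 5 time points. For Il10 they were Pde4b, a cAMP phosphodiesterase (Pearson r = 0.996), Pim1, a kinase (0.994), and Tnfaip3, the NF-kB inhibitor A20 (0.991). For Socs3 they were the phosphatase Dusp2 (0.997), the cytokine Il1a (0.996) and Gadd45b (0.995). Stat3 ran with the interferon-stimulated genes Phf11d (0.998) and Irf7 (0.997), and with Atp10a (0.998). Il10ra was most like Sowahc (0.979), the transcription factor Irf1 (0.979) and the NF-kB subunit Rel (0.974), and Il10rb most like Abhd5 (0.99), Rab7b (0.988) and Tspan14 (0.986). In RPFs, which the search did not use, r for these 15 genes lay between 0.65 and 0.99.

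The wider pathway was read from lists chosen by function, with earlier results of these data known. Some list genes passed the filter only through LPS libraries, such as Stat5a, with 4.03 and 3.46 RNA RPKM at 0 h. Il10ra, Il10rb, Stat3 and Socs3 are also counted in the lists. Counts of calls therefore describe the genes listed and are not support for a shared response. Among the receptor chains of the IL-10 family and of gp130, 3 of 15 were tested in RNA, 1 rose at 6 h (Il10ra) and 2 fell. Of all tested genes, 26.1% rose and 54.9% fell in that comparison. The fall was largest for Il6st, the gp130 chain that Socs3 binds, with 6.33 and 6.33 RPKM at 6 h and 23.5 and 27.6 RPKM at 0 h (log2 change -1.85, SE 0.12, adjusted p = 8.97e-10). Its footprints fell as well (-2.13, adjusted p = 0.00329). The list's median was -0.34, against -0.41 over all tested genes.

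Among receptor chains for interferons, gamma-c cytokines and GM-CSF, 8 of 11 tested rose and 2 fell at 6 h in RNA, beside 26.1% and 54.9% of all tested genes (median 0.75, against -0.41 for all tested genes). Il4ra, the IL-4 receptor chain, had 407 and 374 RPKM at 6 h and 25.8 and 25.8 RPKM at 0 h (3.87, adjusted p = 6.84e-13). Il2rg, the common gamma chain, rose by 1.86. Ifngr1, the ligand-binding chain for interferon gamma, fell by 2.02 to 24.1 and 22.1 RPKM at 6 h, against 94.0 and 99.6 RPKM at 0 h, and Il7r fell by 1.36.

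Of the JAK kinases and STAT factors on the list, 7 of 8 tested rose at 6 h and 1 fell, beside 26.1% and 54.9% of all tested genes (median 2.12). Jak2 had 136 and 145 RPKM at 6 h and 9.19 and 11.0 RPKM at 0 h (3.68, adjusted p = 1.14e-13). Stat2, which carries type I interferon signals, had 109 and 115 RPKM at 6 h and 10.3 and 10.0 RPKM at 0 h (3.34, adjusted p = 3.20e-12). Stat5a, which acts downstream of GM-CSF among others, rose by 2.44. At 1 h, Stat2 RNA was lower than at 0 h by 1.37 (adjusted p = 1.41e-06), while Jak2 RNA was already higher (0.90, adjusted p = 2.30e-05). In RPFs 6 of the 8 rose and 1 fell at 6 h, beside 12.8% and 36% of all tested genes.

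Of the 8 SOCS family genes, only Socs3 passed the filter in RNA, and Socs4 had a row below it. Among other inhibitors of JAK-STAT signalling, 4 of 9 tested rose and 2 fell at 6 h, beside 26.1% and 54.9% of all tested genes. The share of calls in either direction was no larger than the 81% over all tested genes. The list's median was 0.21, against -0.41 for all tested genes. Usp18, which displaces Jak1 from the type I interferon receptor, had 505 and 463 RPKM at 6 h and 10.2 and 8.94 RPKM at 0 h (5.52, adjusted p = 1.15e-15), with no change past the threshold at 1 h (-0.21, adjusted p = 0.208). The phosphatases Ptpn1 (1.84) and Ptprc (1.53) rose too, and Pias2, a SUMO ligase named for its inhibition of STATs, fell by 1.39. No gene of this list passed at 1 h, when 16.8% of all tested genes did.

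Of 20 genes known to respond to IL-10 or STAT3 in macrophages, 16 were tested in RNA, of which 8 rose at 1 h and 14 at 6 h, while none fell at 1 h and 2 at 6 h. Of all tested genes, 7.72% rose and 9.12% fell at 1 h, and 26.1% rose and 54.9% fell at 6 h. Their median was 0.70 at 1 h and 2.69 at 6 h, against -0.15 and -0.41 for all tested genes. Il1rn, the secreted antagonist of the IL-1 receptor, had 2655 and 3053 RPKM at 6 h and 18.0 and 14.1 RPKM at 0 h (7.39, adjusted p = 3.91e-16), and only 1.75 of that change was present at 1 h. Pim1 had most of its change at 1 h (4.30), and was 3.82 higher at 6 h than at 0 h. LPS acts on many of these genes also without IL-10, and which route moved them was not tested.

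**Figure D4:**
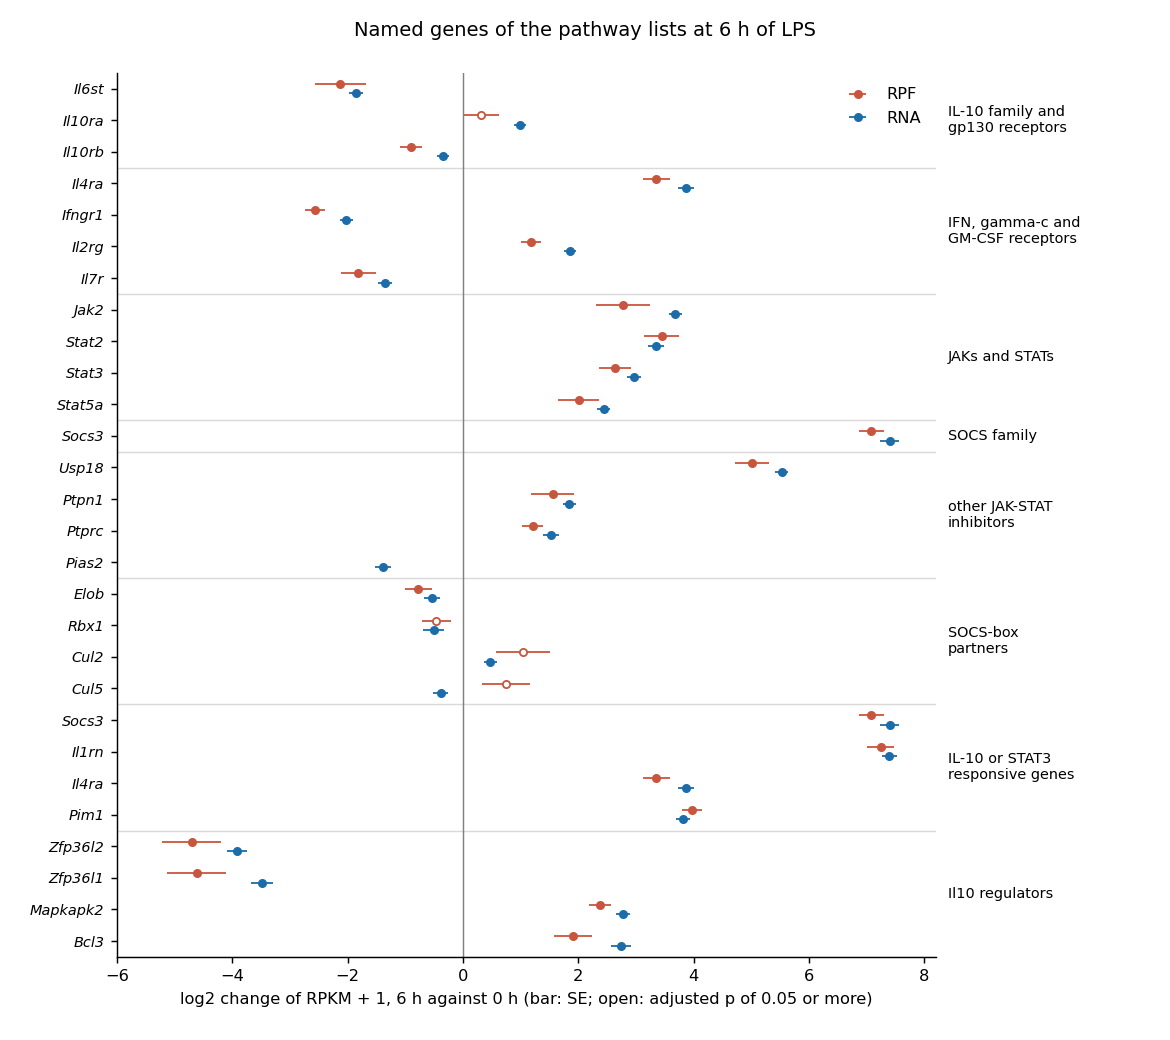
Log2 change of RPKM + 1 at 6 h against 0 h for the named genes of each pathway list, RPFs in red and RNA in blue, with standard errors as bars and open points at an adjusted p of 0.05 or more. Socs3 and Il1rn lie above 7 in both assays, Jak2 and the named STAT genes between 2.00 and 3.68, and Il6st, Ifngr1 and Il7r below -1.3.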

How the data were processed

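RNA-seq and Ribo-seq libraries of BMDMs at 5 times, 2 replicates each, were analysed. The authors trimmed reads, removed rRNA, tRNA and mitochondrial reads with Bowtie, mapped the rest to mm10 with TopHat, counted reads over RefSeq genes in HTSeq and deposited RPKM values, so depth and length are already divided out. The authors called CLIP peaks with Piranha in bins of 50 nt at p 0.01 over input, merged those within 100 nt and deposited each peak's fold as a ratio to input with a p-value. The CLIP table also holds a deposited RPKM-like score per mRNA that was not used.

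Here log2(RPKM + 1) was fitted with limma 3.58.1 (R 4.3.3), all 10 libraries of an assay sharing one estimate of spread (5 residual degrees of freedom, mean-variance trend). This scale understates changes of low genes. Genes needed a mean of 10 RPKM, in both assays for TE, which left 4805 for RNA, 5277 for RPFs and 4621 for TE. Adjustment was by Benjamini-Hochberg per comparison over all tested genes, at 0.05. TE was tested as the log2 ratio per culture. Ribo-seq depth was taken from steps of low values (96.2% to 99.4% whole within 0.06 of a read, up to 8 reads). Counting intervals are exact at 95% and cover counting error only. Code was checked on simulated data. Tables and figures were made in Python 3.11.15 (pandas 2.3.3, numpy 2.4.6, scipy 1.17.1, matplotlib 3.10.9).

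The members and lists were chosen with earlier results of these data known. Named list genes are the up to 4 of each list with the largest RNA change at 6 h among those past the threshold, and the 3 genes most like each member by r. A second deposited table, of genes selected by the authors with their own statistics, was not used, and 1 item of the lists is not reported here. Alternatives were other added values, no filter, the study's filter, median centring, a replicate block, one model over both assays, and each library left out.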

Additional observations from a re-analysis of the deposited data

How the results depend on the processing

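Under the filter of over 10 RPKM in every library of both assays, Il10 and Socs3, which were low before LPS, were no longer tested. Against 0 h, the members called in RNA then numbered 1 after 1 h, 2 after 2 h and 3 after both 4 h and 6 h, and those called in footprints 0 after 1 h, 2 after both 2 h and 6 h, and 3 after 4 h. For RNA at 2 h against 1 h there was 1. Leaving out 1 library at a time left 1 sample at that time, assumed to vary like the other times. The count of members called then ranged over 0 to 3 for RNA at 2 h against 1 h, 2 to 4 for RNA at 4 h against 2 h, 2 to 4 for RPF at 2 h against 0 h, 0 to 1 for RPF at 6 h against 4 h, and 0 to 1 for TE at 1 h against 0 h. The same omissions spread the log2 change of Stat3 over -0.0915 to 0.148 (RNA, 1 h against 0 h), -0.16 to 0.53 (RPF, 1 h against 0 h) and -0.53 to 0.16 (RPF, 2 h against 0 h), and that of Il10ra over -0.0410 to 0.68 (RPF, 6 h against 0 h). Against 0 h, the Socs3 TE change ranged over -0.68 to 0.38 after 1 h, over -0.71 to 0.34 after 2 h, over -0.81 to 0.25 after 4 h and over -0.84 to 0.21 after 6 h, positive without library B of 0 h. With 5 RPKM added in place of 1 it was 0.37, 0.34, 0.25 and 0.21 at those times. Median centring gave 0.0379 for Stat3 footprints at 2 h against 0 h. Over all genes, the filter on every library left 346 of 809 calls in RNA and 92 of 172 in RPF at 1 h against 0 h, since it tests fewer genes, and leaving out 1 h replicate A gave 877 calls in RPF there. Omitting a library of 0 h, or 2 h replicate A, gave 269 to 344 of 554 RPF calls at 2 h against 0 h, and omitting one of 0 h or 4 h gave 966 to 1207 of 1858 at 4 h against 0 h. Omitting 0 h replicate A left 532 RNA calls at 1 h against 0 h, and omitting 1 h replicate B left 426. The cause of the other changes was not tested.

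The culture letters were not taken as pairs. Over the 10 pairs of times, same-letter deviations correlated at 0.0984 to 0.549 in RNA, at -0.0257 to 0.0365 in RPF and at 0.0184 to 0.0846 in TE. A replicate block changed 1 call of the members, that of Il10ra footprints at 2 h against 0 h (1.14, adjusted p = 0.0584 in limma), and left 3 members called there. Over all genes it moved the RNA calls at 1 h against 0 h to 1262, against 809 without it. Depth limits the footprints of Il10 and Socs3 at 0 h (4 to 17 reads) and the values of 6 h replicate A, the shallowest RPF library. There, 66 reads stand behind Il10 and 88 behind Il10rb.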

Other observations

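Genes that act on Il10 itself and the partners of the SOCS box were read from lists of the same kind. Of 24 regulators of Il10 transcription and mRNA, 14 were tested in RNA. At 1 h, 8 rose and 3 fell, beside 7.72% and 9.12% of all tested genes. At 6 h, 8 rose and 4 fell, beside 26.1% and 54.9%. Calls in either direction made up 16.8% of all tested genes at 1 h and 81% at 6 h. The list's median was 1.42 on the log2 scale at 6 h, against -0.41 over all tested genes. Mapkapk2, the kinase that phosphorylates Zfp36, had 587 and 598 RPKM at 6 h and 88.5 and 83.4 RPKM at 0 h (2.77, limma adjusted p = 8.65e-12). Bcl3, an atypical IkB protein, rose by 2.74 from 4.47 and 2.58 RPKM at 0 h, and passed the filter only through its LPS libraries. Zfp36l1 and Zfp36l2, relatives of Zfp36 that bind AU-rich elements too, fell by 3.48 and 3.92, to between 1.19 and 2.02 RPKM in the 6 h libraries, against 18.6 to 53.7 RPKM in the 0 h libraries. Footprints of Zfp36l1 fell by 4.62, and those of Zfp36l2 fell by 4.70.

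Of the SOCS-box partners, 5 were tested in RNA, and 1 rose and 3 fell at 6 h, beside 26.1% and 54.9% of all tested genes. None passed the threshold at 1 h. Calls in either direction made up 81% of all tested genes at 6 h and 16.8% at 1 h. The RNA changes were small, from -0.54 for Elob and -0.51 for Rbx1 to -0.39 for Cul5 and 0.47 for Cul2, beside -0.41 for the median tested gene. In RPFs, of these 4 only Elob passed at 6 h (-0.78, adjusted p = 0.0208). The RPF changes of the others were 1.03 for Cul2, 0.74 for Cul5 and -0.46 for Rbx1. The list's RPF median at 6 h was 0.49, against -0.66 over all tested genes.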
